A study of Homo sapiens with 8 samples.

Results

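Integrins are cell surface receptors made of an alpha and a beta chain, and laminins are basement membrane proteins made of an alpha, a beta and a gamma chain. The genes were chosen from the deposited count table by symbols that name an integrin alpha or beta chain or a laminin chain, and 37 of 20294 genes are described. They comprised 26 integrin chains, 18 alpha and 8 beta, and 11 laminin chains. The cells were HSC-5, a line from a human cutaneous squamous cell carcinoma, a tumour of the epidermal keratinocyte lineage. All groups stably expressed Cas9 from a lentivirus and were selected with G418. The groups were HSC-5 cells with the guide RNA sgEZH2-1 (3 libraries), HSC-5 cells with the guide RNA sgEZH2-2 (3 libraries) and control cells with the empty vector (2 libraries). Both guides target EZH2, the catalytic subunit of Polycomb repressive complex 2, which methylates histone H3 at lysine 27 and keeps developmental genes silent. The labels do not say that clones were picked, so each library is taken as a selected population, in which fewer cells with a transcript and less transcript per cell cannot be told apart. Whether the libraries of a group were separate cultures is not labelled, and p-values therefore reflect only the spread between libraries, which may be technical.

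In the basal layer of the epidermis, keratinocytes sit on a basement membrane rich in a laminin that contains LAMA3 and LAMB3. The integrin of ITGA6 and ITGB4 binds this laminin at hemidesmosomes, which anchor the keratin filaments, and the integrin of ITGA3 and ITGB1 binds it at more dynamic contacts. A further laminin of skin, made of LAMA5, LAMB1 and LAMC1, is also bound by these receptors. Other ITGB1 partners bind collagens (ITGA1, ITGA2) or fibronectin (ITGA5), and ITGAV joins ITGB1, ITGB5, ITGB6 or ITGB8 in receptors for matrix proteins and latent TGF-beta. A beta chain that several alpha chains share cannot be assigned to one receptor from its RNA, so the pairings below compare transcripts and not assembled receptors.

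The promoter windows of 3 alpha chains are shown because ITGA1 and ITGA5 were called higher with each guide, and because ITGA2, the next integrin gene after ITGA1 on its chromosome, was called with neither. ITGA1 lies on chromosome 5 (52787896 to 52959210, plus strand, GRCh38) and ITGA2 starts 30.1 kb beyond its end (52989326 to 53094779, plus strand). ITGA5 lies on chromosome 12 (54395261 to 54419460, minus strand). The sequences are RefSeq windows of GRCh38.p14 that run from 250 bases before to 50 bases after the start annotated in RefSeq. They lie at chr5:52787666-52787965 on the plus strand, chr5:52989102-52989401 on the plus strand and chr12:54419217-54419516 on the minus strand. The gene bounds above are from another annotation, GENCODE release 29, whose starts differ. Most of the ITGA5 window lies inside the bounds of ITGA5 given above. Capitals mark each CG dinucleotide.
ITGA1: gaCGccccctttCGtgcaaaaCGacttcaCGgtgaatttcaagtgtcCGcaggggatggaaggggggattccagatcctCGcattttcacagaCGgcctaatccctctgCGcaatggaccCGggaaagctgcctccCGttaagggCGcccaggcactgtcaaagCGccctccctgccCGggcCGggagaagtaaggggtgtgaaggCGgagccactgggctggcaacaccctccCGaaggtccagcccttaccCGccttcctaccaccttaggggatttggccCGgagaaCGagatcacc
ITGA2: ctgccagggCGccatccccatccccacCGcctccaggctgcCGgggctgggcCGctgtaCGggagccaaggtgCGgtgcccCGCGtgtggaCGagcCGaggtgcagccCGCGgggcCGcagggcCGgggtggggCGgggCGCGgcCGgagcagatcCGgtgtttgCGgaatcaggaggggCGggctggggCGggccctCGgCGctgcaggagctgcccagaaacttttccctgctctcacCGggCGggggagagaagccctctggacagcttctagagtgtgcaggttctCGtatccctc
ITGA5: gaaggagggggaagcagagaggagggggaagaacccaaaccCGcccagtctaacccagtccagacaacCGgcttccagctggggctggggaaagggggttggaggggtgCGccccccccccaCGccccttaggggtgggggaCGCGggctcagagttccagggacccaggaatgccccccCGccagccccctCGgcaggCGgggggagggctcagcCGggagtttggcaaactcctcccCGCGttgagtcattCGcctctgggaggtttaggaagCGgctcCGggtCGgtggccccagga
The ITGA1 window held 19 CG dinucleotides, the ITGA2 window 27 and the ITGA5 window 16. The median was 14 over the 26 of 37 chains with a window in the RefSeq table and also 14 over 27305 promoter windows. The motif GGGCGG, searched on both strands, had 4 matches in the ITGA2 window, 1 in the ITGA5 window and 0 in the ITGA1 window, and 44.6% of all windows held it. The motif TGANTCA, searched on both strands, had 1 match in the ITGA5 window and 0 in the others, and 7.76% of all windows held it. These letter matches describe the windows and locate no binding site.

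Between 12.6 M and 15.5 M counts were recorded per library. EZH2, the targeted gene, had 56.4, 56.3 and 48.0 CPM (a count scaled to a common library size) with sgEZH2-1, 73.8, 67.5 and 65.1 CPM with sgEZH2-2, and 82.7 and 84.1 CPM in the controls. Its transcript fell with sgEZH2-1 (log2 fold change -0.64, adjusted p = 0.000529 in edgeR's quasi-likelihood test) and was at -0.28 with sgEZH2-2 (adjusted p = 0.0699). A transcript with a small insertion or deletion is still counted, so this level does not measure the protein. All 9 keratinocyte markers passed the filter on low counts and summed to 3628 to 4048 CPM with sgEZH2-1, 3425 to 3511 CPM with sgEZH2-2 and 3996 to 4023 CPM in the controls. KRT14 was nearly absent, with 6 and 8 counts (0.426 and 0.521 CPM) in the controls, and passed the filter only through guide libraries. The largest part of the sum was KRT5, with 2105 and 1951 CPM in the controls. Within that sum KRT17 (log2 fold change 0.82, adjusted p = 0.00581 in edgeR) and KRT6A (0.38, adjusted p = 0.0131) were called higher and TP63 lower (-1.01, adjusted p = 1.27e-05) with sgEZH2-1, and KRT5 (-0.36, adjusted p = 0.00727) and DSG3 (-0.30, adjusted p = 0.0212) were called lower with sgEZH2-2. The part of these marker changes in the values of the chains was not tested. CD3E of 5 leukocyte markers, TYR and DCT of 5 melanocyte markers, COL1A2 of 8 fibroblast markers and KDR of 6 endothelial markers had no count. The 8 fibroblast markers summed to 5.02 to 8.89 CPM with sgEZH2-1, 11.0 to 14.0 CPM with sgEZH2-2 and 6.13 to 7.24 CPM in the controls. Most of that sum was COL1A1, which was called higher with sgEZH2-2 (log2 fold change 0.88, adjusted p = 0.0437 in edgeR). With sgEZH2-1, COL1A1 was at -0.01 (adjusted p = 0.984). The 5 leukocyte markers summed to 13.9 to 18.2 CPM with sgEZH2-1, 11.6 to 13.5 CPM with sgEZH2-2 and 14.1 to 14.4 CPM in the controls. The 5 melanocyte markers summed to 30.5 to 33.0 CPM with sgEZH2-1, 27.8 to 29.7 CPM with sgEZH2-2 and 28.9 to 30.8 CPM in the controls. Most of this was MITF, which was not called with either guide. The endothelial sum of 76.6 to 81.7 CPM with sgEZH2-1, 143 to 160 CPM with sgEZH2-2 and 177 to 184 CPM in the controls was nearly all CDH5. CDH5 was called lower with sgEZH2-1 (log2 fold change -1.19, adjusted p = 1.83e-06 in edgeR) and with sgEZH2-2 (-0.24, adjusted p = 0.0364). Libraries also differed in how a gene's level depended on its GC content. For the 1949 genes above 60% GC, the first sgEZH2-1 library stood farthest out, with a median log2 level of -0.32 relative to the mean over libraries. In the other 7 libraries that median lay between -0.09 and 0.21. For the 1928 genes up to 40% GC, the first control library stood farthest out (-0.16), and the second was at 0.04. Spearman's rho between level and GC content was -0.55 in the first sgEZH2-1 library, 0.39 in the first control library and -0.24 in the second.

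HSC-5 control cells expressed chains of both epidermal laminins and of their main receptors. Of the 37 chains, 25 passed the filter (17 integrin and 8 laminin chains) and 12 did not. ITGB1, the shared partner of most alpha chains, had the highest control level, at 162 ± 10.8 CPM per kb of exon (SD, n = 2). The alpha chain ITGA3 had 73.1 ± 6.25 CPM per kb and the laminin chain LAMB3 67.4 ± 3.74 CPM per kb, with control ranges that overlapped. ITGA6 stood at 53.5 ± 3.62 CPM per kb, apart from the chains on either side. ITGB4 (41.2 ± 5.05), ITGB5 (40.8 ± 2.93) and LAMB1 (40.7 ± 0.347 CPM per kb) could not be ordered. LAMC1 followed at 29.7 CPM per kb, ahead of ITGA2 (27.4) and LAMA5 (26.1 CPM per kb), whose ranges overlapped. Below them came LAMB2 at 21.2, ITGAV at 18.4, ITGB6 at 13.7 and LAMA3 at 11.1 CPM per kb. ITGB8 followed at 6.69, ITGAE at 5.06 and ITGA5 at 3.21 CPM per kb. Each of these had a range apart from its neighbour. The place of LAMA3 depends on the exon length used, 11.04 kb, which joins its annotated transcripts. LAMA1 had 2.21, ITGB2 1.06 and ITGA2B 0.537 CPM per kb, and ITGAL, ITGA7, ITGA10, LAMA2 and ITGA1 lay between 0.215 and 0.0949 CPM per kb.

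**Figure D1:**
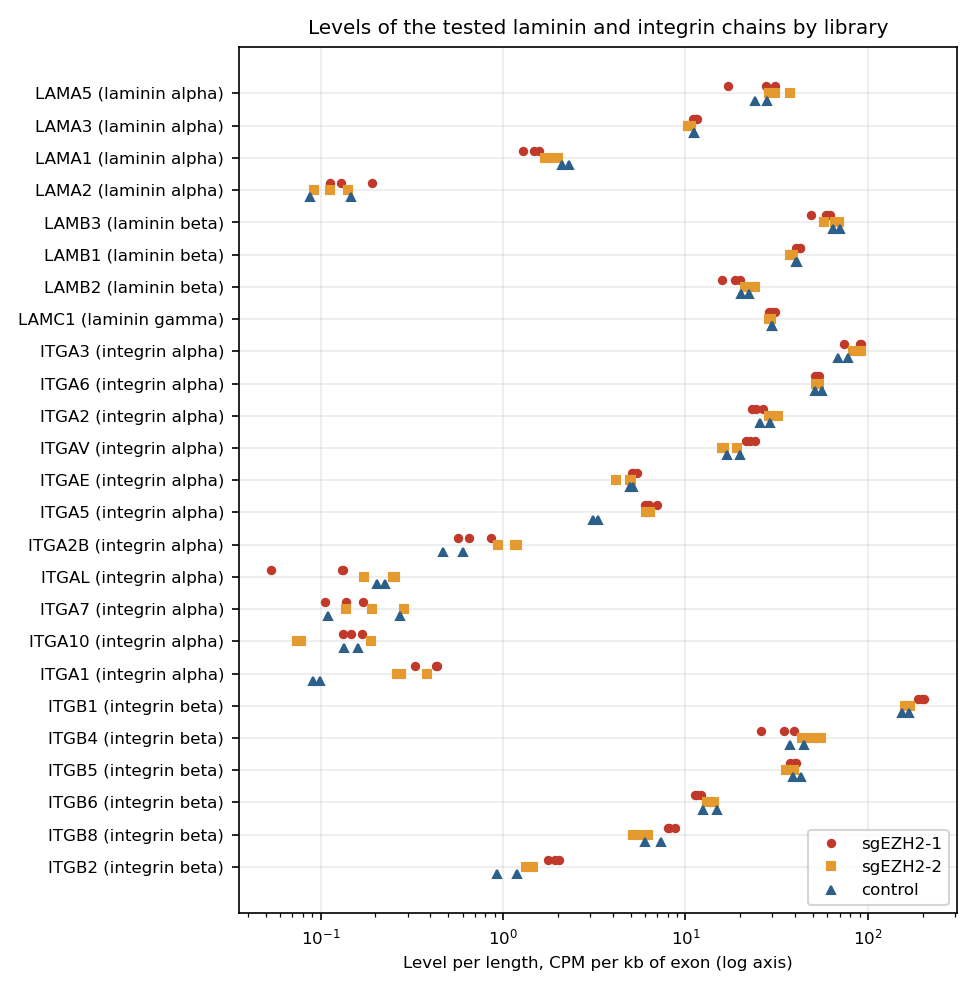
Level of the 25 tested chains in each library, in CPM per kb of exon on a log axis, grouped by chain type and ordered within a type by the control mean. Red circles are sgEZH2-1, orange squares sgEZH2-2 and blue triangles control libraries; ITGB1 has the highest control level (162 CPM per kb), and ITGA5 and ITGA1 show both guides to the right of the controls.

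With both guides pooled against control, 2 of the 25 tested chains were called higher and 0 lower, both of them integrin alpha chains. Across all 13124 genes tested with edgeR's quasi-likelihood test, 4.36% were called at an adjusted p of at most 0.05, 3.76% higher and 0.594% lower. The median log2 fold change was -0.011 over the 25 chains and -0.0043 over all genes. Without either control library, 1 chain (ITGA5) was called. This fit has 2 levels, so that unequal effects of the guides widen its spread. All guide libraries lay on the same side of both controls in 4 chains (16%), ITGA1, ITGA5 and ITGB2 above and LAMA1 below, against 19.9% of all genes tested.

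With sgEZH2-1 against control, 4 chains were called higher (ITGA1, ITGA5, ITGB1 and ITGB2) and 1 lower (LAMA1). The share of 20% of the chains stands beside 20.8% of all genes called in that comparison, 11.3% higher and 9.51% lower. With sgEZH2-2 against control, 3 chains were called higher (ITGA1, ITGA5 and ITGA2B) and 0 lower. That share of 12% stands beside 8.68% of all genes, 6.18% higher and 2.50% lower. The same 2 controls enter both comparisons, so the calls on ITGA1 and ITGA5 with the other guide are no independent repeat. The guide libraries did not overlap the controls in 11 chains with sgEZH2-1 (44%, against 48.0% of all genes) and in 10 chains with sgEZH2-2 (40%, against 39.7% of all genes). Between the guides, 10 chains were called, 5 higher and 5 lower with sgEZH2-1, beside 21.9% of all genes called (10.4% higher and 11.5% lower). The guides did not overlap in 14 chains (56%), against 42.2% of all genes. Without the second or the third sgEZH2-1 library, 6 chains were called between the guides, and without 1 of the sgEZH2-2 libraries 4 or 5.

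**Figure D2:**
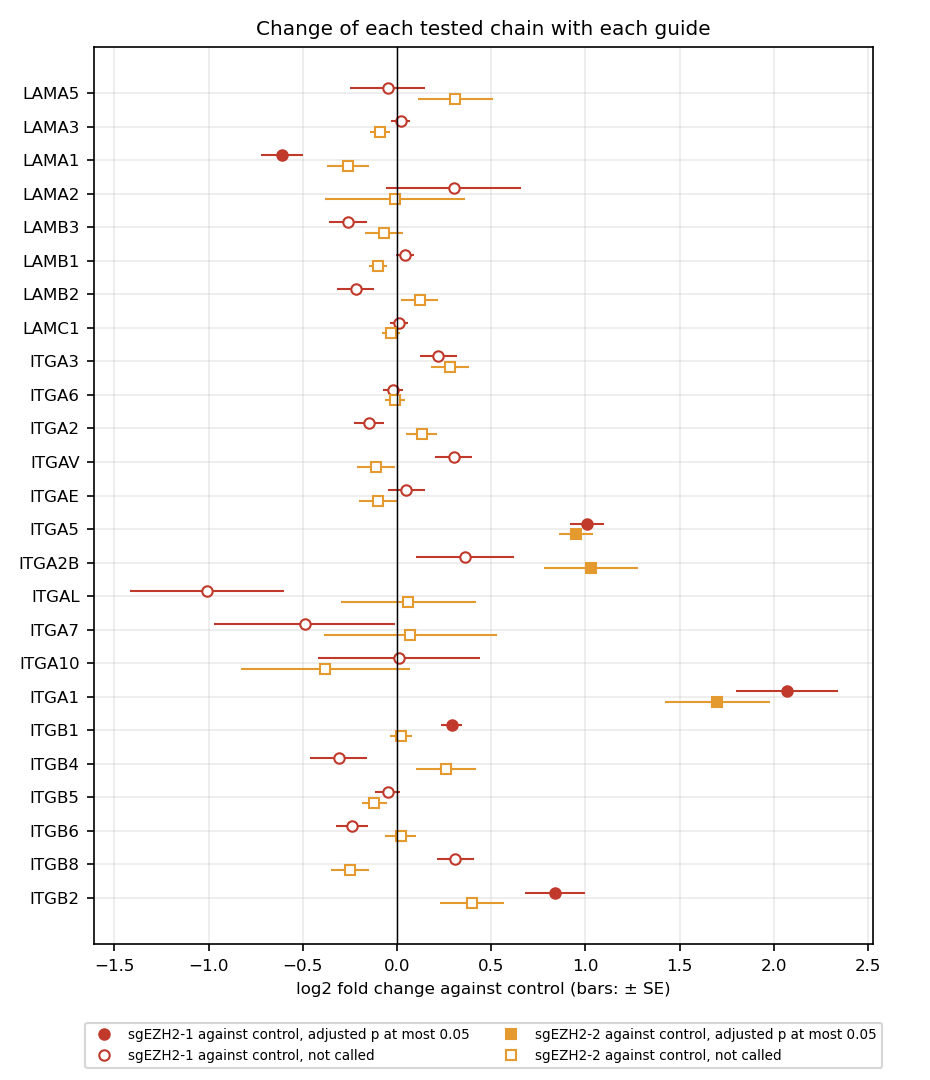
log2 fold change of each of the 25 tested chains with sgEZH2-1 (red circles) and sgEZH2-2 (orange squares) against control, with bars of ± SE. Filled symbols passed an adjusted p of 0.05; ITGA1 (2.07 and 1.70) and ITGA5 (1.01 and 0.95) are filled for both guides.

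Among the ligands, LAMA3 and LAMB3, chains of the laminin at hemidesmosomes, were not called with either guide. LAMA3 (chromosome 18, 23689443 to 23956222, plus strand), the alpha chain that carries the receptor-binding end, had 126, 126 and 121 CPM with sgEZH2-1, 114, 118 and 114 CPM with sgEZH2-2, and 122 and 124 CPM in the controls. It was at a log2 fold change of 0.02 with sgEZH2-1 (adjusted p = 0.818 in edgeR) and -0.09 with sgEZH2-2 (adjusted p = 0.337). LAMB3 (chromosome 1, 209614870 to 209652466, minus strand), the beta chain, had 218, 265 and 277 CPM with sgEZH2-1, 258, 311 and 296 CPM with sgEZH2-2, and 315 and 291 CPM in the controls. The sgEZH2-1 libraries lay below both controls, with a log2 fold change of -0.26 that missed the threshold (adjusted p = 0.109 in edgeR). LAMB3 has 58.9% GC, its lowest value was in the first sgEZH2-1 library, and without that library it was at -0.16 (adjusted p = 0.213). With the GC trend of each library removed it was at -0.17 (adjusted p = 0.0369). LAMB3 with sgEZH2-2 was at -0.07 (adjusted p = 0.747), with overlapping groups.

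Because the chains of 1 laminin are assembled together, their levels were also set against each other within each library, per length. The ratio of LAMA3 to LAMB3 was 0.235, 0.194 and 0.178 with sgEZH2-1, 0.180, 0.154 and 0.156 with sgEZH2-2, and 0.158 and 0.173 in the controls. The sgEZH2-1 libraries stood above the controls, while sgEZH2-2 and control overlapped, and the highest ratio was that of the first sgEZH2-1 library, in which LAMB3 was lowest. The ratio of LAMA5 to LAMA3, the alpha chains of the epidermal laminins, was 1.51, 2.42 and 2.81 with sgEZH2-1, 2.78, 3.49 and 3.02 with sgEZH2-2, and 2.54 and 2.15 in the controls. Here sgEZH2-2 lay above the controls and overlapped sgEZH2-1. The ratio of LAMB1 to LAMC1 was 1.38, 1.42 and 1.40 with sgEZH2-1, 1.30, 1.29 and 1.35 with sgEZH2-2, and 1.38 and 1.36 in the controls, the narrowest of these ratios. LAMA3 levels are divided by a joined exon length of 11.04 kb. Its RefSeq promoter window (chr18:23872770-23873069) lies inside the gene, so shorter transcripts may be among those counted. The size of both LAMA3 ratios therefore depends on the length chosen, and the use of single transcripts was not tested. All ratios between chains are given as descriptions, with no test.

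The chains of the second epidermal laminin were not called with either guide against control. LAMA5 (chromosome 20, 62307955 to 62367312, minus strand), its alpha chain, had 197, 317 and 352 CPM with sgEZH2-1, 328, 427 and 356 CPM with sgEZH2-2, and 320 and 276 CPM in the controls. The first sgEZH2-1 library was lower than every other library. At 66.4% GC, LAMA5 was the most GC-rich of the tested chains. That library also had the lowest median level for genes above 60% GC, and the part of this in the LAMA5 value was not tested. LAMB1 (chromosome 7, 107923799 to 108003255, minus strand) had 264, 266 and 251 CPM with sgEZH2-1, 237, 232 and 241 CPM with sgEZH2-2, and 255 and 252 CPM in the controls. LAMC1 (chromosome 1, 183023460 to 183145592, plus strand), its gamma chain, had 243, 237 and 227 CPM with sgEZH2-1, 232, 229 and 227 CPM with sgEZH2-2, and 234 and 235 CPM in the controls. LAMC1 varied little between libraries, with log2 fold changes of 0.01 with sgEZH2-1 and -0.03 with sgEZH2-2 (adjusted p = 0.924 and 0.768 in edgeR). LAMB1 was at 0.04 with sgEZH2-1 and -0.10 with sgEZH2-2, and its difference between the guides was called (log2 difference 0.14, adjusted p = 0.0445) but lost in 9 of 14 alternatives, among them each fit without 1 of the sgEZH2-2 libraries (adjusted p up to 0.158) and that without the second sgEZH2-1 library (adjusted p = 0.168).

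LAMB2, the beta chain that replaces LAMB1 in other basement membranes, had 91.1, 108 and 115 CPM with sgEZH2-1, 123, 140 and 136 CPM with sgEZH2-2, and 128 and 116 CPM in the controls. All sgEZH2-1 libraries were below all others, and sgEZH2-2 overlapped the controls. LAMB2 (chromosome 3, 49121114 to 49133118, minus strand) was at -0.22 with sgEZH2-1 (adjusted p = 0.141 in edgeR) and 0.12 with sgEZH2-2 (adjusted p = 0.522). The difference between the guides was called (log2 difference -0.34, SE 0.088, adjusted p = 0.021), and was lost without the second or the third sgEZH2-2 library (adjusted p = 0.0817 and 0.0778). LAMB2 has 60.3% GC and was lowest in the first sgEZH2-1 library, without which the difference was -0.25 (adjusted p = 0.0386). The ratio of LAMB2 to LAMB1 was 0.373, 0.440 and 0.496 with sgEZH2-1, 0.559, 0.650 and 0.611 with sgEZH2-2, and 0.544 and 0.498 in the controls, lowest in that same library.

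LAMA1, the alpha chain of the laminin of early embryonic basement membranes, was called lower with sgEZH2-1 against control. LAMA1 (chromosome 18, 6941744 to 7117814, minus strand) had 15.5, 14.6 and 12.7 CPM with sgEZH2-1, 19.8, 18.2 and 16.6 CPM with sgEZH2-2, and 20.7 and 22.8 CPM in the controls. The 3 groups did not overlap. Its log2 fold change was -0.61 with sgEZH2-1 (SE 0.11, adjusted p = 0.00367 in edgeR) and -0.26 with sgEZH2-2 (SE 0.11, adjusted p = 0.193). The difference between the guides was called (-0.35, adjusted p = 0.0353), and was lost in 5 of 14 alternatives (adjusted p up to 0.108), 4 of them without 1 guide library. LAMA2, the alpha chain of muscle laminin, was at the low end, with 0.847 to 1.85 CPM over all libraries and no call.

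**Figure D3:**
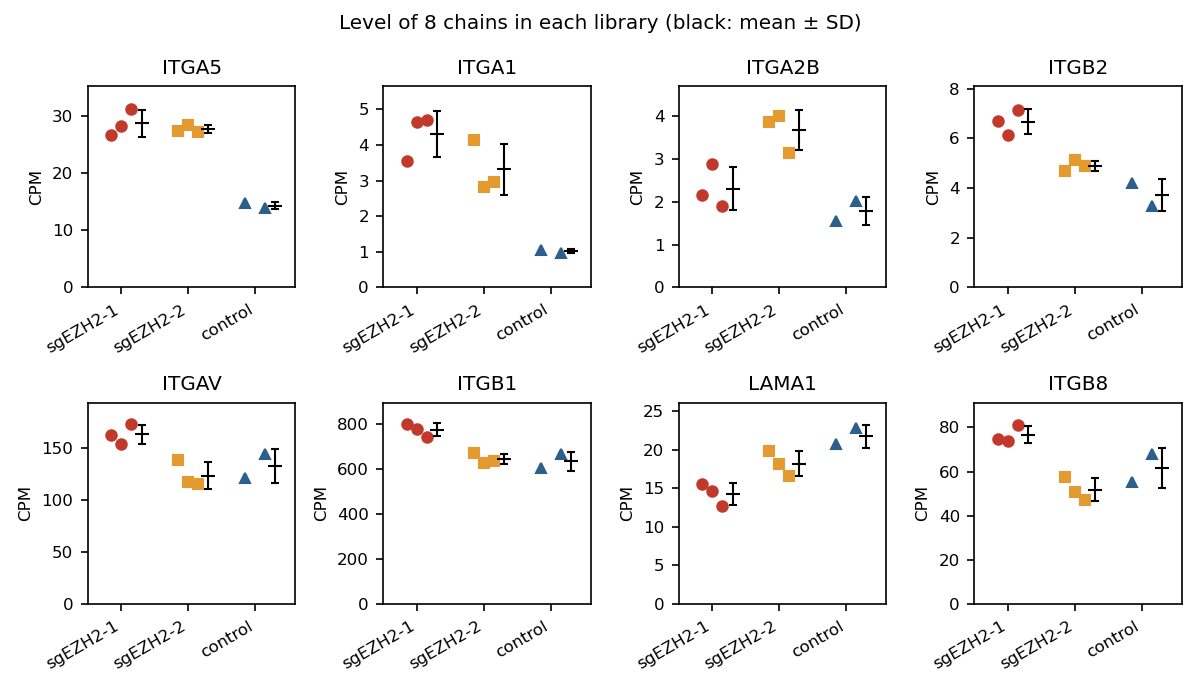
Level in CPM of 8 chains in every library with sgEZH2-1 (red circles), sgEZH2-2 (orange squares) and control (blue triangles), with the group mean and SD in black; each panel has its own axis from 0. ITGA5 and ITGA1 are higher with both guides, ITGA2B is higher with sgEZH2-2, ITGAV, ITGB1 and ITGB8 stand out with sgEZH2-1, and LAMA1 and ITGB2 are ordered across the 3 groups.

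Among the receptors, ITGA5, the fibronectin receptor alpha chain, rose with each guide. ITGA5 had 26.6, 28.2 and 31.1 CPM with sgEZH2-1, 27.3, 28.4 and 27.1 CPM with sgEZH2-2, and 14.7 and 13.8 CPM in the controls. No guide library came near the controls, and the guides overlapped each other. The log2 fold change was 1.01 with sgEZH2-1 (SE 0.091, adjusted p = 5.03e-05 in edgeR), or 2.01-fold, and 0.95 with sgEZH2-2 (SE 0.092, adjusted p = 0.000174), or 1.94-fold. In the pooled comparison it was 0.98 (SE 0.092, adjusted p = 0.000414). The difference between the guides was 0.06 (SE 0.076, adjusted p = 0.632), and with the GC trend of each library removed it was 0.17 and called (adjusted p = 0.0413). ITGA5 passed the test in all 3 comparisons with control under all 14 alternative analyses, which changed the scaling, the filter, the test or the libraries used, or removed a GC trend.

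ITGA1, the alpha chain of a collagen and laminin receptor, rose with each guide, at a level that remained near the bottom of the family. It had 3.55, 4.65 and 4.69 CPM with sgEZH2-1, 4.14, 2.83 and 2.97 CPM with sgEZH2-2, and 1.06 and 0.978 CPM in the controls. No guide library overlapped the controls. Its log2 fold change was 2.07 with sgEZH2-1 (SE 0.27, adjusted p = 0.000538 in edgeR), or 4.2-fold, and 1.70 with sgEZH2-2 (SE 0.28, adjusted p = 0.00409), or 3.25-fold. In the pooled comparison it was 1.89 (SE 0.29, adjusted p = 0.00505), and this pooled call was lost without either control library (adjusted p up to 0.0903). PELO, whose exons lie on the same strand and cover 4.4% of the ITGA1 exon bases, had 45.6, 45.9 and 50.8 CPM with sgEZH2-1, 43.9, 45.4 and 43.5 CPM with sgEZH2-2, and 46.4 and 45.0 CPM in the controls. The part of PELO reads in the ITGA1 counts was not tested, and PELO itself was not called in any of the 4 comparisons.

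ITGA2, the main collagen receptor alpha chain of keratinocytes, had 210, 192 and 182 CPM with sgEZH2-1, 253, 229 and 226 CPM with sgEZH2-2, and 202 and 230 CPM in the controls. Both guides overlapped the controls, with log2 fold changes of -0.15 with sgEZH2-1 (adjusted p = 0.223 in edgeR) and 0.13 with sgEZH2-2 (adjusted p = 0.39). The difference between the guides was called (log2 difference -0.28, adjusted p = 0.0214), and was lost without the second or the third sgEZH2-1 library or the first sgEZH2-2 library (adjusted p up to 0.0832). Per length, ITGA1 stood at 0.0124, 0.0177 and 0.0188 of the ITGA2 level with sgEZH2-1, 0.0120, 0.00905 and 0.00963 with sgEZH2-2, and 0.00386 and 0.00311 in the controls. ITGA2 therefore remained the more abundant of the pair in every library.

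The alpha chains of the 2 main laminin receptors were not called in any comparison. ITGA6 (chromosome 2, 172427354 to 172506282, plus strand), of the hemidesmosomal integrin, had 310, 314 and 298 CPM with sgEZH2-1, 317, 312 and 305 CPM with sgEZH2-2, and 298 and 328 CPM in the controls. The groups overlapped, and all 8 libraries lay between 298 and 328 CPM. Its log2 fold changes were -0.02 with sgEZH2-1 (SE 0.054, adjusted p = 0.791 in edgeR) and -0.01 with sgEZH2-2 (SE 0.054, adjusted p = 0.955). ITGA3 (chromosome 17, 50055968 to 50090481, plus strand) had 360, 443 and 446 CPM with sgEZH2-1, 405, 451 and 447 CPM with sgEZH2-2, and 379 and 335 CPM in the controls. Only the first sgEZH2-1 library fell between the controls, and the log2 fold changes of 0.22 with sgEZH2-1 (adjusted p = 0.127 in edgeR) and 0.28 with sgEZH2-2 (adjusted p = 0.102) missed the threshold. Without that library both passed, at 0.32 with sgEZH2-1 (adjusted p = 0.0102) and 0.28 with sgEZH2-2 (adjusted p = 0.0205). With the GC trend of each library removed, ITGA3, at 60.9% GC, passed with sgEZH2-1 (0.33, adjusted p = 6.32e-05), with sgEZH2-2 (0.22, adjusted p = 0.00231) and in the pooled comparison (0.27, adjusted p = 0.0175).

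ITGB4 (chromosome 17, 75721328 to 75757818, plus strand), the beta chain that joins ITGA6 in hemidesmosomes and has no other partner, had 161, 214 and 243 CPM with sgEZH2-1, 268, 342 and 304 CPM with sgEZH2-2, and 277 and 233 CPM in the controls. It was called with neither guide (log2 fold change -0.31 with sgEZH2-1, adjusted p = 0.193 in edgeR, and 0.26 with sgEZH2-2, adjusted p = 0.369). Without the first sgEZH2-1 library the value with sgEZH2-1 was -0.16 (adjusted p = 0.383), and without the first control library it was -0.17 (adjusted p = 0.652). Between the guides it was called (log2 difference -0.56, SE 0.14, adjusted p = 0.0173). ITGB4 has 63.7% GC, its lowest value was in the first sgEZH2-1 library, and without that library the difference between the guides was -0.41 (adjusted p = 0.0222). Without the second or the third sgEZH2-2 library the call was lost (adjusted p = 0.0713 and 0.0577). The ratio of ITGA6 to ITGB4 was 2.04, 1.56 and 1.30 with sgEZH2-1, 1.25, 0.965 and 1.06 with sgEZH2-2, and 1.14 and 1.49 in the controls, so that only the guides were apart from each other.

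ITGB1 (chromosome 10, 32900319 to 33005792, minus strand), the common beta chain, had 802, 779 and 744 CPM with sgEZH2-1, 672, 629 and 636 CPM with sgEZH2-2, and 605 and 665 CPM in the controls. It rose with sgEZH2-1 (log2 fold change 0.29, SE 0.057, adjusted p = 0.00585 in edgeR), or 1.22-fold, although without the first control library this call was lost (adjusted p = 0.0701). With sgEZH2-2 it was at 0.02 (SE 0.057, adjusted p = 0.858), and the difference between the guides was called (0.26, adjusted p = 0.00546). The ratio of ITGA5 to ITGB1 was 0.0294, 0.0321 and 0.0369 with sgEZH2-1, 0.0359, 0.0399 and 0.0377 with sgEZH2-2, and 0.0215 and 0.0184 in the controls. The ITGA5 level relative to ITGB1 was higher with each guide, without overlap with the controls. The ratio of ITGA3 to ITGB1 was 0.361, 0.458 and 0.482 with sgEZH2-1, 0.485, 0.576 and 0.565 with sgEZH2-2, and 0.503 and 0.405 in the controls.

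The chains of the ITGAV receptors differed between the guides. ITGAV (chromosome 2, 186590065 to 186680901, plus strand) had 162, 154 and 173 CPM with sgEZH2-1, 138, 117 and 115 CPM with sgEZH2-2, and 121 and 144 CPM in the controls. ITGB8 (chromosome 7, 20330702 to 20415754, plus strand), which pairs with ITGAV only, had 74.9, 74.1 and 81.3 CPM with sgEZH2-1, 57.4, 50.9 and 47.3 CPM with sgEZH2-2, and 55.2 and 68.1 CPM in the controls. In both genes the sgEZH2-1 libraries were above all others and sgEZH2-2 overlapped the controls. With sgEZH2-1 the log2 fold changes just missed the threshold, at 0.30 for ITGAV (adjusted p = 0.0553 in edgeR) and 0.31 for ITGB8 (adjusted p = 0.0564). Both passed without the second control library (0.43, adjusted p = 0.0303, and 0.47, adjusted p = 0.0214) and without the first sgEZH2-2 library. Without the first control library both were at 0.18 (adjusted p = 0.359 for ITGAV and 0.371 for ITGB8). With the GC trend removed they were at 0.19 and 0.20 and passed (adjusted p = 0.0288 and 0.0388). The differences between the guides were called, at 0.40 for ITGAV (SE 0.087, adjusted p = 0.00923) and 0.56 for ITGB8 (SE 0.094, adjusted p = 0.00254).

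ITGB6 (chromosome 2, 160099666 to 160200313, minus strand), the epithelial ITGAV partner that activates latent TGF-beta, had 57.0, 53.8 and 52.8 CPM with sgEZH2-1, 66.9, 66.7 and 61.2 CPM with sgEZH2-2, and 58.7 and 69.7 CPM in the controls. It was lower with sgEZH2-1 in every library, at -0.24 against control (adjusted p = 0.0703 in edgeR) and -0.25 against sgEZH2-2 (adjusted p = 0.0373). Without the first control library it passed against control (-0.35, adjusted p = 0.0325), and without the second it was at -0.11 (adjusted p = 0.413). Without any 1 of 5 guide libraries it missed the threshold between the guides (adjusted p up to 0.123). An annotated transcript of another gene, AC092153.1, shares 20.6% of the ITGB6 exon bases on the same strand, so its counts are uncertain. The ratio of ITGB8 to ITGB6 was 0.668, 0.700 and 0.783 with sgEZH2-1, 0.436, 0.388 and 0.393 with sgEZH2-2, and 0.478 and 0.497 in the controls. The sgEZH2-1 libraries lay above and the sgEZH2-2 libraries below the controls. ITGB5, a further ITGAV partner, had 164, 175 and 177 CPM with sgEZH2-1, 156, 162 and 173 CPM with sgEZH2-2, and 187 and 169 CPM in the controls, with no call.

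**Figure D4:**
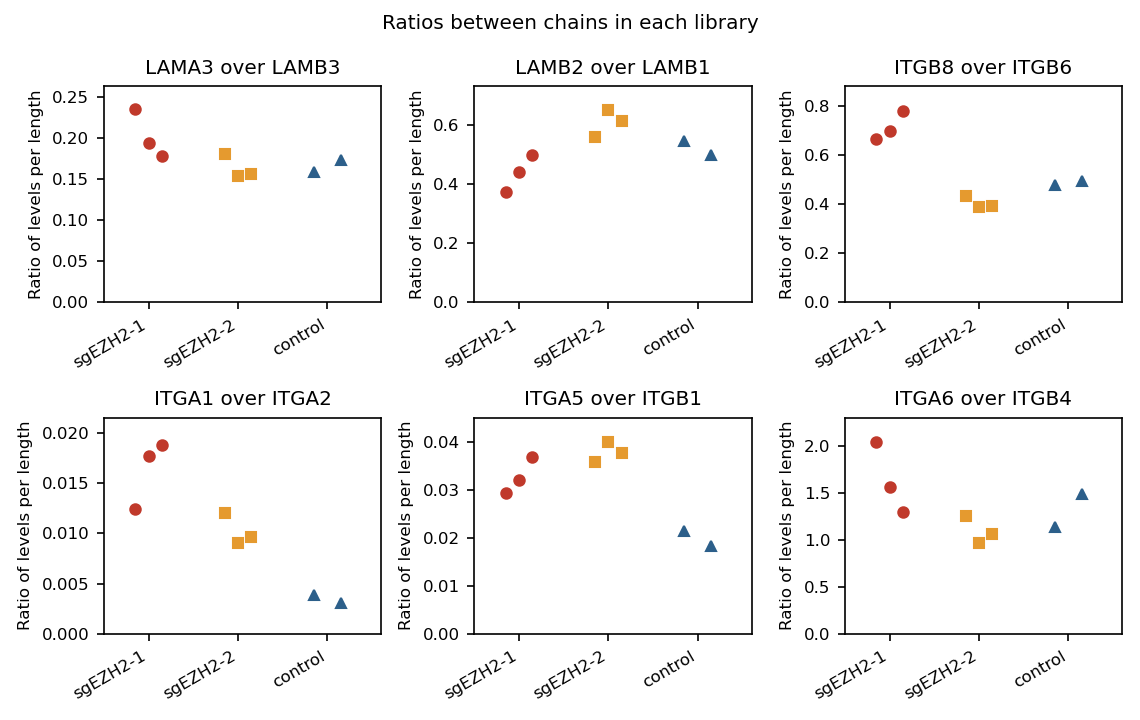
Ratio of the levels per length of 6 pairs of chains in each library with sgEZH2-1 (red circles), sgEZH2-2 (orange squares) and control (blue triangles), each panel with its own axis from 0. LAMB2 over LAMB1 and ITGB8 over ITGB6 separate all 3 groups, ITGA1 over ITGA2 and ITGA5 over ITGB1 are above control with both guides, and ITGA6 over ITGB4 overlaps the controls with both guides. LAMA3 over LAMB3 is above control with sgEZH2-1.

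Chains typical of blood cells were found at low levels, with few counts for most of their usual partners. ITGB2 (chromosome 21, 44885953 to 44931989, minus strand), the beta chain of leukocyte integrins, had 6.72, 6.15 and 7.14 CPM with sgEZH2-1, 4.69, 5.11 and 4.88 CPM with sgEZH2-2, and 4.19 and 3.26 CPM in the controls. The 3 groups did not overlap, and the rise was called with sgEZH2-1 (log2 fold change 0.84, SE 0.16, adjusted p = 0.00514 in edgeR) but not with sgEZH2-2 (0.40, SE 0.17, adjusted p = 0.193). The difference between the guides (0.45, adjusted p = 0.0463) was lost in 9 of 14 alternatives, among them each fit without 1 guide library (adjusted p up to 0.12) and DESeq2 (adjusted p = 0.157). Of its alpha partners, ITGAL had 0.280 to 0.695 CPM with sgEZH2-1, 0.897 to 1.34 CPM with sgEZH2-2 and 1.06 to 1.17 CPM in the controls, with no call. ITGAM, ITGAX and ITGAD, the others, had at most 10 counts in any library. Of the 5 leukocyte markers, 3 were tested and 0 were called with either guide against control, while CD68 was called between the guides (log2 difference 0.44, adjusted p = 0.0261). The part of that in the ITGB2 difference was not tested. An antisense gene covers 6.3% of the ITGB2 exon bases.

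ITGA2B (chromosome 17, 44372180 to 44389505, minus strand), the alpha chain of the platelet fibrinogen receptor, had 2.16, 2.87 and 1.89 CPM with sgEZH2-1, 3.86, 4.01 and 3.13 CPM with sgEZH2-2, and 1.56 and 2.02 CPM in the controls. Its level was higher in every sgEZH2-2 library than in any other. The rise with sgEZH2-2 was called (log2 fold change 1.03, SE 0.25, adjusted p = 0.0319 in edgeR), but 5 of 14 alternatives lost it, among them the fits without either control library or without the first or second sgEZH2-2 library (adjusted p up to 0.185). ITGB3, its partner, had 0 to 6 counts per library with sgEZH2-1, 4 to 9 with sgEZH2-2 and 5 to 8 in the controls. ITGAE, which joins ITGB7 in a receptor for E-cadherin, had 21.1, 19.6 and 19.8 CPM with sgEZH2-1, 16.1, 19.5 and 19.2 CPM with sgEZH2-2, and 19.9 and 19.2 CPM in the controls. ITGA7 and ITGA10, chains of muscle and cartilage receptors, lay between 0.393 and 1.30 CPM in every library, without a call.

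The 12 chains that did not pass the filter were ITGA4, ITGA8, ITGA9, ITGA11, ITGAD, ITGAM, ITGAX, ITGB3, ITGB7, LAMA4, LAMB4 and LAMC3, none above 10 counts in a library. LAMC3, a gamma chain, summed to 23 counts with sgEZH2-1, 15 with sgEZH2-2 and 3 in the controls. The ratio of depth-scaled counts was 5.39 with sgEZH2-1 (exact 95% counting interval 1.63 to 28.0) and 3.65 with sgEZH2-2 (1.03 to 19.7). ITGB7 summed to 23 counts with sgEZH2-1, 7 with sgEZH2-2 and 1 in the controls, a ratio of 16.2 (2.63 to 666) with sgEZH2-1 and 5.11 (0.656 to 230) with sgEZH2-2. For ITGA8, ITGAM and LAMA4 the ratios were 0.234 (0.00446 to 2.92), 2.11 (0.377 to 21.4) and 2.81 (0.278 to 138) with sgEZH2-1. With sgEZH2-2 they were 1.95 (0.467 to 11.4), 2.55 (0.486 to 25.2) and 0.73 (0.0093 to 57.3). These intervals cover counting error only. ZNF740, on the opposite strand, shares 51.4% of the ITGB7 exon bases, and the strand setting of the counting is not given in the sources used here. ITGB3 shares 51.6% of its exon bases with another annotated gene, AC068234.1, on the same strand, so its counts are uncertain as well. In the fit with no filter, ITGB7 was called with sgEZH2-1 (adjusted p = 0.012 in edgeR), while ITGA4 (adjusted p = 0.0613) and LAMC3 (adjusted p = 0.0774) were not. With sgEZH2-2, neither LAMC3 (adjusted p = 0.305) nor ITGB7 (adjusted p = 0.328) was called in that fit. ITGA4, a fibronectin and VCAM1 receptor chain, summed to 1 count with sgEZH2-1, 9 with sgEZH2-2 and 10 in the controls.

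The differences between the guides were set against the GC content of the transcripts, and the part of GC content in them was not tested. Across the 25 tested chains, Spearman's rho between the log2 difference and GC content was -0.60, and across 12745 genes it was -0.35. These correlations run across genes that share libraries and are given as descriptions. Removing the GC trend of each library brought the rho across all genes to -0.01, by the construction of the correction. After it, 14 of the 25 chains were called, beside 30.9% of all genes. All 10 chains called before were among them, and ITGA3, ITGA5, ITGB5 and LAMA3 were added. The AT-rich ITGB8 moved to 0.48, ITGAV to 0.32 and ITGB1 to 0.20, and the GC-rich ITGB4 to -0.34 and LAMB2 to -0.19. The differences widened in the AT-rich ITGA2 (-0.28 to -0.34) and ITGB6 (-0.25 to -0.32), and in ITGB2 (0.45 to 0.57). LAMA1 stayed at -0.35, and LAMB1 was at 0.13 against 0.14 before. LAMA5 was at -0.08 after the correction, against -0.36 before it, without a call in either. ITGB8, ITGB1 and ITGAV were called between the guides under all 14 alternatives.

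**Figure D5:**
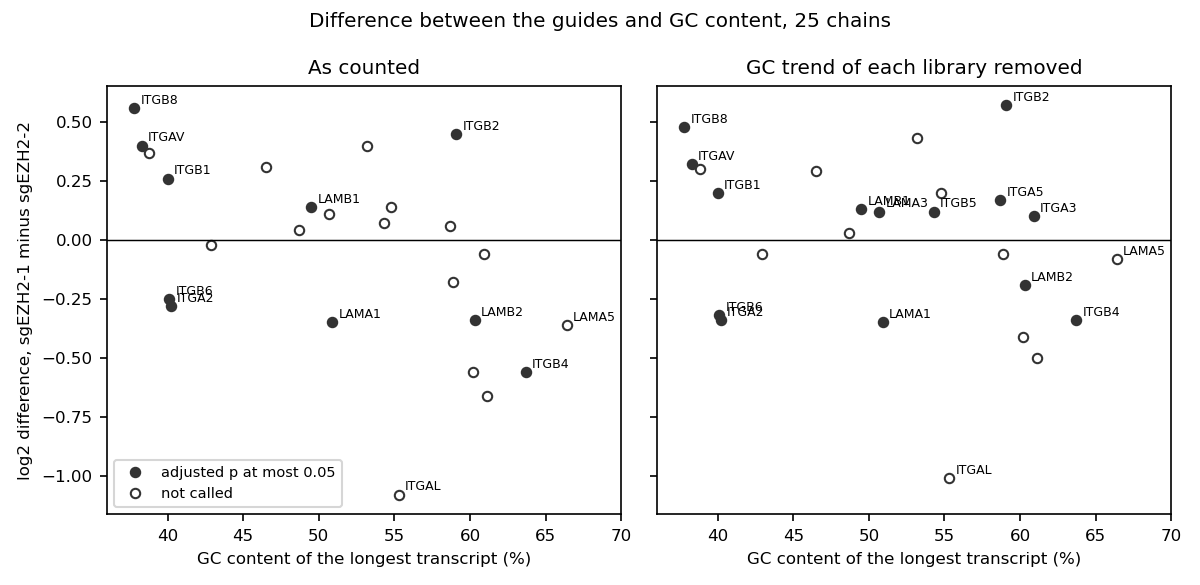
log2 difference of each of the 25 tested chains, sgEZH2-1 minus sgEZH2-2, against the GC content of its longest transcript, as counted (left) and with the GC trend of each library removed (right). Filled points passed an adjusted p of 0.05 (10 on the left, 14 on the right). The downward slope on the left (rho -0.60) comes with ITGB8 and ITGAV at low GC and ITGB4 and LAMB2 at high GC. ITGA2 and ITGB6, also at low GC, lie on the negative side.

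With sgEZH2-1 against control, removing the GC trend brought the number of called chains to 12, 7 higher and 5 lower, beside 29.4% of all genes. Added were ITGA3, ITGAV and ITGB8 on the higher side and ITGA2, ITGB4, ITGB6 and LAMB3 on the lower side. With sgEZH2-2 against control it brought the number to 5, beside 15.3% of all genes, adding ITGA3 (higher) and ITGB8 (lower, -0.27, adjusted p = 0.0189). ITGA1 and ITGA5 were called in each case.

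Integrin ligands outside the laminins were taken from a list of 20 genes, of which 16 were tested. The list is not limited to ligands of the called chains. With sgEZH2-1, 7 were called higher and 1 lower, and with sgEZH2-2, 4 were called higher and 2 lower. Of all genes tested, 20.8% were called with sgEZH2-1 and 8.68% with sgEZH2-2, which applies to the lists that follow as well. The median log2 fold change was 0.227 with sgEZH2-1 and 0.152 with sgEZH2-2, against medians of -0.0094 and 0.0009 over all genes. Fibronectin (FN1), the ligand of the ITGA5 receptor, had 9.42, 9.64 and 9.17 CPM with sgEZH2-1, 5.59, 5.50 and 4.88 CPM with sgEZH2-2, and 1.21 and 0.782 CPM in the controls. It rose with both guides (log2 fold change 3.24, adjusted p = 4.96e-06, with sgEZH2-1, and 2.42, adjusted p = 8.85e-05, with sgEZH2-2, in edgeR). Tenascin C (TNC), a matrix protein bound by ITGAV and other integrins, rose by 1.82 with sgEZH2-1 (adjusted p = 1.49e-05) and 1.21 with sgEZH2-2 (adjusted p = 0.000526). THBS1, a matrix glycoprotein, rose with sgEZH2-1 (0.46, adjusted p = 0.00476) and fell with sgEZH2-2 (-0.71, adjusted p = 0.000727). SPP1, an ITGAV ligand, fell with sgEZH2-1 (-1.17, adjusted p = 0.000116) and was at -0.20 with sgEZH2-2 (adjusted p = 0.337). FBN2, a microfibril protein, rose by 0.92 with sgEZH2-1 (adjusted p = 5.06e-05) and 0.38 with sgEZH2-2 (adjusted p = 0.019). CCN2, a matricellular protein, rose with sgEZH2-2 (0.68, adjusted p = 0.00154) and was at 0.18 with sgEZH2-1 (adjusted p = 0.196).

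Of 18 other basement membrane genes, 14 were tested. With sgEZH2-1, 7 were called higher and 3 lower, beside 20.8% of all genes called. With sgEZH2-2, 4 were called higher and 0 lower, beside 8.68% of all genes called. PXDN, the peroxidase that crosslinks collagen IV, had 150, 155 and 162 CPM with sgEZH2-1, 82.4, 99.1 and 91.6 CPM with sgEZH2-2, and 69.9 and 72.2 CPM in the controls. It rose with sgEZH2-1 (1.13, adjusted p = 1.02e-05 in edgeR) and sgEZH2-2 (0.36, adjusted p = 0.0205). FRAS1, a protein of the epidermal basement membrane, rose by 1.37 with sgEZH2-1 (adjusted p = 0.000139) and 0.71 with sgEZH2-2 (adjusted p = 0.0157). The related FREM2 had 1.16, 0.752 and 0.770 CPM with sgEZH2-1, 0.897, 0.629 and 0.762 CPM with sgEZH2-2, and 0.142 and 0.196 CPM in the controls, and was called higher with each guide. COL4A4, a collagen IV chain, had 0.840 to 1.62 CPM with sgEZH2-1, 0.690 to 1.45 CPM with sgEZH2-2 and 0.142 to 0.326 CPM in the controls, and was also called higher with each. FREM2 and COL4A4 were low enough in the controls that they passed the filter through the guide libraries, and without them 5 of the genes were called higher with sgEZH2-1 and 2 with sgEZH2-2. COL4A5, a further collagen IV chain, fell with sgEZH2-1 (-0.49, adjusted p = 0.00179) and was at -0.08 with sgEZH2-2 (adjusted p = 0.621). Without either control library, 0 of these genes were called with sgEZH2-2, and without the second or the third sgEZH2-2 library 2 and 1 were. With sgEZH2-1, 4 were called without the first control library, 6 without the second and 5 without the third sgEZH2-2 library.

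All 5 listed hemidesmosome genes were tested, and COL17A1, the transmembrane collagen that binds ITGA6 and laminin, was the 1 called lower. It had 129, 139 and 130 CPM with sgEZH2-1, 205, 211 and 210 CPM with sgEZH2-2, and 237 and 208 CPM in the controls. The sgEZH2-1 libraries lay far below the rest (log2 fold change -0.75, adjusted p = 3.26e-05 in edgeR), while sgEZH2-2 was at -0.09 (adjusted p = 0.449). ERBIN, which binds ITGB4, was called higher with sgEZH2-1 (0.28, adjusted p = 0.0256) and was at 0.01 with sgEZH2-2 (adjusted p = 0.937). The call of ERBIN was lost without the first control library and without the first or the second sgEZH2-1 library, which left 1 hemidesmosome gene called. PLEC, DST and CD151, the keratin linkers and a tetraspanin partner, were not called with either guide.

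Of 5 laminin receptors that are not integrins, 1 was called higher and 3 lower with sgEZH2-1, and 0 with sgEZH2-2. The shares of all genes called were 20.8% with sgEZH2-1 and 8.68% with sgEZH2-2. SDC4, a syndecan of focal adhesions, rose with sgEZH2-1 (0.35, adjusted p = 0.000781 in edgeR). SDC1, the main syndecan of keratinocytes, fell (-0.47, adjusted p = 0.00478), as did BCAM, a receptor of LAMA5 (-0.48, adjusted p = 0.0381), and dystroglycan, DAG1 (-0.21, adjusted p = 0.00836). With sgEZH2-2 the values were 0.17 for SDC4, 0.16 for SDC1, -0.11 for BCAM and -0.11 for DAG1. RPSA, the non-integrin laminin receptor that is also a ribosomal protein, was at 0.02 with sgEZH2-1 and -0.12 with sgEZH2-2 without a call.

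Of 35 adaptors that link integrins to the cytoskeleton, 33 were tested, and with sgEZH2-1 4 were called higher and 7 lower. With sgEZH2-2, 1 was called higher and 1 lower. The shares of all genes called were 20.8% with sgEZH2-1 and 8.68% with sgEZH2-2. KANK1, a talin partner at the rim of adhesions, fell with sgEZH2-1 (-0.69, adjusted p = 4.13e-05 in edgeR) and sgEZH2-2 (-0.31, adjusted p = 0.0119). PARVB, a parvin, rose with sgEZH2-1 (0.63, adjusted p = 0.0253) and sgEZH2-2 (0.75, adjusted p = 0.0227). RSU1, of the same adhesion complex, rose with sgEZH2-1 (0.63, adjusted p = 0.000707). Tensins TNS1 and TNS4 fell with sgEZH2-1 (-0.78, adjusted p = 0.00179, and -0.41, adjusted p = 0.00256), and TLN2, a talin, rose (0.80, adjusted p = 0.00584). FERMT1, the kindlin of keratinocytes that activates ITGB1, fell with sgEZH2-1 (-0.30, adjusted p = 0.00388) and was at -0.17 with sgEZH2-2 (adjusted p = 0.096). With sgEZH2-2, 0 adaptors were called without either control library or without the third sgEZH2-2 library, and 1 without the first or the second.

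Of 5 proteases that cut laminin chains, MMP14 was called lower with sgEZH2-1 (-0.24, adjusted p = 0.0131 in edgeR), and none was called with sgEZH2-2. BMP1, which trims laminin chains, was at 0.06 with sgEZH2-1 (adjusted p = 0.656) and -0.23 with sgEZH2-2 (adjusted p = 0.15). MMP2, a gelatinase, had 5.87, 6.70 and 5.46 CPM with sgEZH2-1, 7.24, 5.98 and 5.57 CPM with sgEZH2-2, and 4.61 and 3.91 CPM in the controls. All guide libraries lay above both controls, but the log2 fold changes of 0.50 (adjusted p = 0.0729) with sgEZH2-1 and 0.56 (adjusted p = 0.0822) with sgEZH2-2 missed the threshold. TLL1 and TLL2, relatives of BMP1, were not called with either guide (adjusted p of at least 0.117 and 0.463). Between the guides, TLL1 (log2 difference 2.06, adjusted p = 0.0175 in edgeR), BMP1 (0.30, adjusted p = 0.0256) and MMP14 (-0.21, adjusted p = 0.0153) were called. TLL1 was low, with 0.0786 to 1.30 CPM over all libraries. These calls were all lost without the second or the third sgEZH2-2 library. Over all 6 lists, 78 of 88 genes were tested, and 20 were called higher and 16 lower with sgEZH2-1, against 9 higher and 3 lower with sgEZH2-2. Without FREM2 and COL4A4, 18 and 7 were called higher. The shares of all genes called, 20.8% with sgEZH2-1 and 8.68% with sgEZH2-2, apply to these counts too. Between the guides, 24 of the 78 were called higher and 14 lower with sgEZH2-1, beside 21.9% of all genes. Without the first control library, 19 of the genes were called with sgEZH2-1, and without either control library 4 were called with sgEZH2-2, as were 5 without the third sgEZH2-2 library. For single lists with sgEZH2-1, the fit without the first control library called 7 adaptors, 1 laminin receptor that is not an integrin, and 0 proteases.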

How the data were processed

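Per the labels' protocols, libraries followed the stranded mRNA protocol of Illumina's TruSeq. The authors deposited whole-number read counts per gene with no normalization. FastQC, STAR, DESeq and genome build hg38 are named, per the submitters' processing notes. Versions, counter, annotation and strandedness are not given in these sources, so counts of overlapping genes are uncertain. The series text states that 1 control library was left out by the submitters because it clustered apart, which may understate the spread of the controls. That library was not analysed here. The columns of the count table name the group and no replicate number, so libraries are called by their order within a group.

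Counts were fitted with edgeR 4.0.16 in R 4.3.3 (TMM scaling, filterByExpr at a minimum count of 10, quasi-likelihood F test, two-sided). Each p was adjusted by Benjamini-Hochberg over the 13124 genes that passed the filter, with a threshold of 0.05. The pooled comparison is a fit of 2 levels. The comparisons of each guide with control and of the guides with each other are contrasts between 3 groups fitted together. The SE of a log2 value was derived from the F statistic. CPM is computed on TMM-scaled totals, and CPM per kb divides it by the union exon length of GENCODE release 29 (GRCh38), in which all 37 chains were found. Library totals of 12.6 M to 15.5 M counts limit the precision of the lowest chains. Pairs of libraries of a group differed by a mean chi-square of 2.16 to 9.85 per gene, where counting error alone gives about 1, so none was treated as a duplicate.

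Alternatives were another size factor (RLE), library totals, no filter, DESeq2 1.42.0, fewer groups in the fit or the mean of both guides, each library left out, and a correction for the GC trend of each library (lowess, span 0.3), the last chosen after seeing the data, as were counts of calls without genes under 10 counts in both controls. The fits were run on simulated counts with known changes, and pass limits were set only for the uncorrected comparisons with control. Those counts held no GC trend, so they did not test the GC correction. A further chain that the symbols matched and a cell type marker stayed in the fits and are not reported here. The chains and the partner lists were chosen with earlier results of these data known. Library values are given for chains called in any comparison and for the chains of the main epidermal laminins and their receptors. From each partner list the genes with the smallest adjusted p with each guide are named. ITGB5, ITGAE, PELO, CDH5, COL1A1 and MITF were added after their values were seen.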

Additional observations from a re-analysis of the deposited data

Results flagged for a closer look

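The guides differed in 10 chains by the direct test of sgEZH2-1 against sgEZH2-2 in edgeR (adjusted p at most 0.05), beside 21.9% of all genes. Higher with sgEZH2-1 were ITGB8 (log2 difference 0.56), ITGB2 (0.45), ITGAV (0.40), ITGB1 (0.26) and LAMB1 (0.14). Lower with sgEZH2-1 were ITGB4 (-0.56), LAMA1 (-0.35), LAMB2 (-0.34), ITGA2 (-0.28) and ITGB6 (-0.25). In ITGAV, ITGB8, ITGB4, ITGB6, ITGA2, LAMB1 and LAMB2 the log2 fold changes against control had opposite signs for the guides, and none of these chains was called against control with either guide. EZH2 itself was lower with sgEZH2-1 than with sgEZH2-2 (log2 difference -0.36, adjusted p = 0.00844 in edgeR), and the part of that in the differences of the chains was not tested.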

How the results depend on the processing

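No paired analysis was possible because the columns of the count table carry no replicate numbers. Of 120 counts of called chains, or of partner genes over all lists, under alternatives, 98 stayed within 1.5 times the value reported and 22 did not. Counts for single partner lists are not among the 120, and some of these moved as well. With the guides pooled, 1 adaptor was called as reported and 7 as the mean of both guides in the fit of 3 groups. As the mean of both guides in the fit of 3 groups, 4 chains and 21 partner genes were called, against 2 and 5 in the pooled fit. DESeq2 called 10 partner genes with the guides pooled, and 3 were called there with genes under 10 counts in both controls left out. With the GC trend removed, the counts were 9 partner genes with the guides pooled, 12 chains with sgEZH2-1, and 5 chains and 23 partner genes with sgEZH2-2. Leaving out 1 library gave 1 to 2 chains and 0 to 5 partner genes with the guides pooled, and 19 to 34 partner genes with sgEZH2-1. It gave 4 to 12 partner genes with sgEZH2-2 and 4 to 10 chains between the guides. The ITGA3 difference between the guides, -0.06 as reported, reversed to 0.10 with the GC trend removed and to 0.03 without the first sgEZH2-1 library (range without 1 library -0.11 to 0.03). The ITGA5 difference, 0.06 as reported, was 0.17 with the GC trend removed (called, adjusted p = 0.0413) and -0.01 without the third sgEZH2-1 library. The GC correction lowers the spread between libraries by its construction, and for the other changes the cause was not tested. A fit that leaves out a control assumes that the remaining one varies like the other groups. At this depth, the 12 chains with at most 10 counts in any library did not pass the filter, and with no filter 1 of them, ITGB7, was called, with sgEZH2-1.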
